A study of Mus musculus with 10 samples.

Results

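Transcripts of 10 genes of matrix mineralization were measured by RNA-seq in cultured mouse adipocytes with and without deletion of Fam20c. The genes were taken by name from the deposited count table: Spp1 (osteopontin), Ibsp (bone sialoprotein), Dmp1, Alpl, Enpp1, Mgp, Bglap (osteocalcin), Phex, Sparc and Sparcl1. All 10 were among the 56748 genes of the table. They were chosen as substrates of FAM20C or as genes of mineral deposition, with earlier results of these data known, and the rule itself uses only their names. Both groups were primary adipocytes differentiated in culture from the stromal vascular fraction (SVF) of inguinal fat of male mice aged 6 to 8 weeks, over 6 to 8 days. Control cultures came from Fam20c-flox mice, which carry floxed Fam20c alleles and no Cre, and KO cultures from Fam20c-flox/Adipoq-Cre mice (Ad-Fam20c–KO), which carry the same alleles, on a C57BL/6J background. Each group had 5 libraries. The Adiponectin promoter drives Cre in adipocytes, whereas an SVF culture also holds cells that do not use this promoter.

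FAM20C is a kinase of the secretory pathway that phosphorylates serines in the motif S-x-E/pS, that is serine, any residue and glutamate or phosphoserine. Its classical substrates in bone and teeth are the SIBLING proteins, acidic secreted phosphoproteins that bind integrins and calcium, among them osteopontin, bone sialoprotein and DMP1. Mineral growth also depends on pyrophosphate, which ENPP1 makes and the alkaline phosphatase ALPL removes, and on inhibitors such as matrix Gla protein (MGP). In adipose tissue osteopontin is known as a matrix and cytokine-like protein made largely by macrophages, and SPARC as a collagen-binding protein that adipocytes and stromal cells secrete.

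The S-x-E form of this motif was not evenly spread over the 10 genes. In the coding sequences of GENCODE M21, Dmp1 had 40 motifs in 503 codons, or 7.95 per 100 codons, and ranked 1 among 21592 protein-coding genes of at least 50 codons. Spp1 ranked 2, with 20 motifs in 294 codons (6.80 per 100 codons). The median gene had 0.441 per 100 codons. Mgp had 3 motifs in 104 codons (2.88 per 100, rank 30), Ibsp 8 in 324 (2.47 per 100, rank 89) and Sparcl1 9 in 650 (1.38 per 100, rank 811). Enpp1, with 7 in 905 codons (0.773 per 100), and Phex, with 3 in 749 (0.401 per 100), lay nearer the median gene. Alpl, Bglap and Sparc, with 524, 95 and 302 codons, had 0. Sites with phosphoserine in place of glutamate were not counted, and phosphorylation itself was not measured here. The stretch of 20 codons with the most motifs is shown for the 5 genes richest in them, to show how the motifs lie in the coding sequence. Capitals mark the serine and glutamate codons of each motif, and each line runs 5′ to 3′ along the coding strand of GRCm38.
Spp1, chr5:104439352-104439411, plus strand, codons 101 to 120, 1 exon, 4 motifs: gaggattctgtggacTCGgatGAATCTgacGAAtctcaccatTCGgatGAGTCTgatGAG
Dmp1, chr5:104212387-104212446, plus strand, codons 310 to 329, 1 exon, 5 motifs: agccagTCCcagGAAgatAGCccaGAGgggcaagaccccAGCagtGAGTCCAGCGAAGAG
Ibsp, chr5:104302492-104306031, plus strand, codons 59 to 78, spliced from 2 exons, 4 motifs: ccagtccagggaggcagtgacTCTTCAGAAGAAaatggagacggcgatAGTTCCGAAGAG
Mgp, chr6:136874271-136875700, minus strand, codons 11 to 30, spliced from 2 exons, 3 motifs: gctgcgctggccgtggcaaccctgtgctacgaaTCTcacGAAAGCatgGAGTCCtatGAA
Sparcl1, chr5:104093293-104093352, minus strand, codons 69 to 88, 1 exon, 3 motifs: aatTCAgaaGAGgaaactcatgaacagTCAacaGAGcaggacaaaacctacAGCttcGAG
In Spp1, Dmp1, Ibsp and Mgp some motifs overlap or abut, whereas the Sparcl1 motifs are spaced along the stretch.

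Total counts were 18949106 to 26237825 per control library and 19883101 to 23291792 per KO library. Levels are given as CPM, that is reads of a gene relative to the TMM-scaled size of its library. A gene with 0 counts in a library could have had up to 3 counts, or 0.114 to 0.158 CPM depending on the library, as far as counting error goes. Control 4 and KO 1 lay together at one end of the first principal component, apart from the other 8 libraries, and the main results are also given without them. The sources used here do not say whether libraries of a group came from separate animals or cultures, so p-values measure the spread between these libraries. Fam20c itself (ENSMUSG00000025854.16) had 8.86, 10.3, 11.9, 9.09 and 11.2 CPM in controls 1 to 5 and 6.65, 7.29, 7.11, 7.70 and 7.74 CPM in KO 1 to 5. The groups did not overlap, and the log2 fold change was -0.49 (SE 0.0929, adjusted p = 0.0137, edgeR quasi-likelihood test with Benjamini-Hochberg adjustment). The ratio of KO to control was 0.711, so the Fam20c transcript was lower in KO cultures but not absent. All 10 adipocyte markers were detected, among them Adipoq (1759 CPM in control, 1820 in KO) and Fabp4 (20805 and 22552 CPM), as the labelled cell type would have.

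The 10 genes spanned a wide range of transcript levels in these cultures. Compared per length, as CPM per kb of exon, the control order was Sparc (1021 ± 93.1, SD, n = 5), Sparcl1 (81.4 ± 6.90), Spp1 (63.4 ± 12.4), Mgp (12.0 ± 2.09), Alpl (0.265 ± 0.0863), Enpp1 (0.189 ± 0.0492), Bglap (0.0395), Dmp1 (0.0211), Ibsp (0.00771) and Phex (0.00154). Sparc ranked 22 among 21871 protein-coding genes by mean level per kb over the 5 control libraries. Sparcl1 ranked 577, Spp1 749, Mgp 3466, Alpl 12021 and Enpp1 12408. The mean control level of Sparc was 12.5 times that of Sparcl1, that of Spp1 was 5.27 times that of Mgp, and that of Mgp was 45.5 times that of Alpl, and the ranges of these neighbours did not overlap. The control ranges of Sparcl1 and Spp1 overlapped (74.0 to 88.7 and 44.0 to 77.1 CPM per kb), as did those of Alpl and Enpp1 and of Bglap, Dmp1, Ibsp and Phex with their next neighbour. In KO cultures the means of Spp1 (70.8) and Sparcl1 (64.3 CPM per kb) stood in the opposite order, again with overlapping ranges (53.3 to 90.8 and 60.4 to 70.4).

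**Figure D1:**
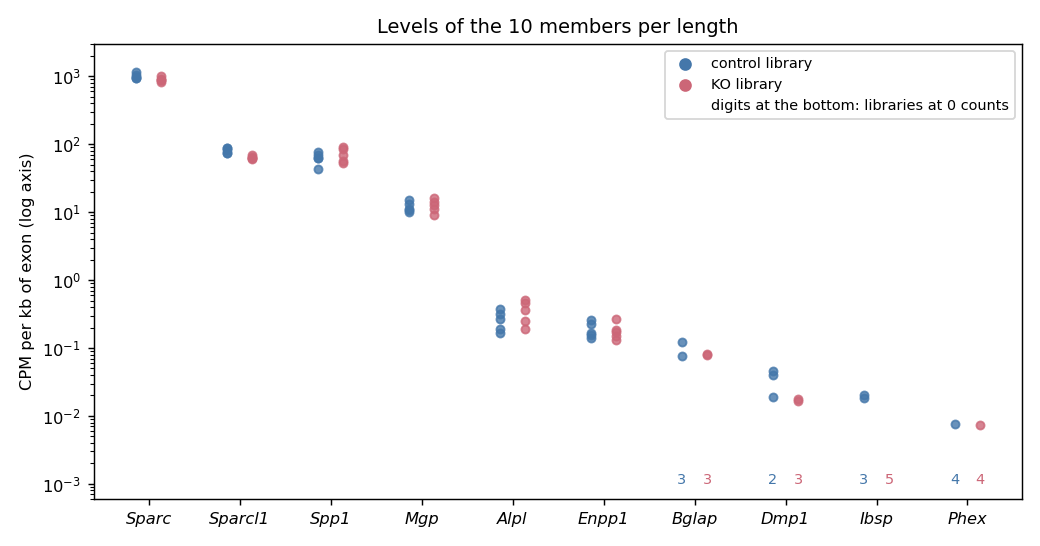
Level of each of the 10 genes in CPM per kb of exon (log axis), 1 point per library, control and KO side by side. Digits at the bottom count the libraries with 0 counts, which a log axis cannot show. Sparc, Sparcl1, Spp1 and Mgp lie above 9 CPM per kb in every library, while Bglap, Dmp1, Ibsp and Phex have libraries at 0.

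Of the 10 genes, 6 had enough counts to be tested for KO against control (minimum count 10 in the filter) and 4 did not. Of the 6, Sparcl1 fell in KO cultures and the other 5 did not pass an adjusted p of 0.05. Over all 14270 genes tested, 265 were lower (1.86%), 44 were higher (0.308%) and 309 changed in either direction (2.17%). These counts depend on single libraries and on the test, the higher genes numbering 119 without control 4, 19 without control 5 and 125 with DESeq2, and the lower genes 164 without KO 2 and 171 without KO 5. The 6 genes split evenly, with 3 lower and 3 higher estimates, and their median log2 fold change was 0.01, beside -0.00085 over all genes tested, 50.3% of which had a lower estimate.

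**Figure D2:**
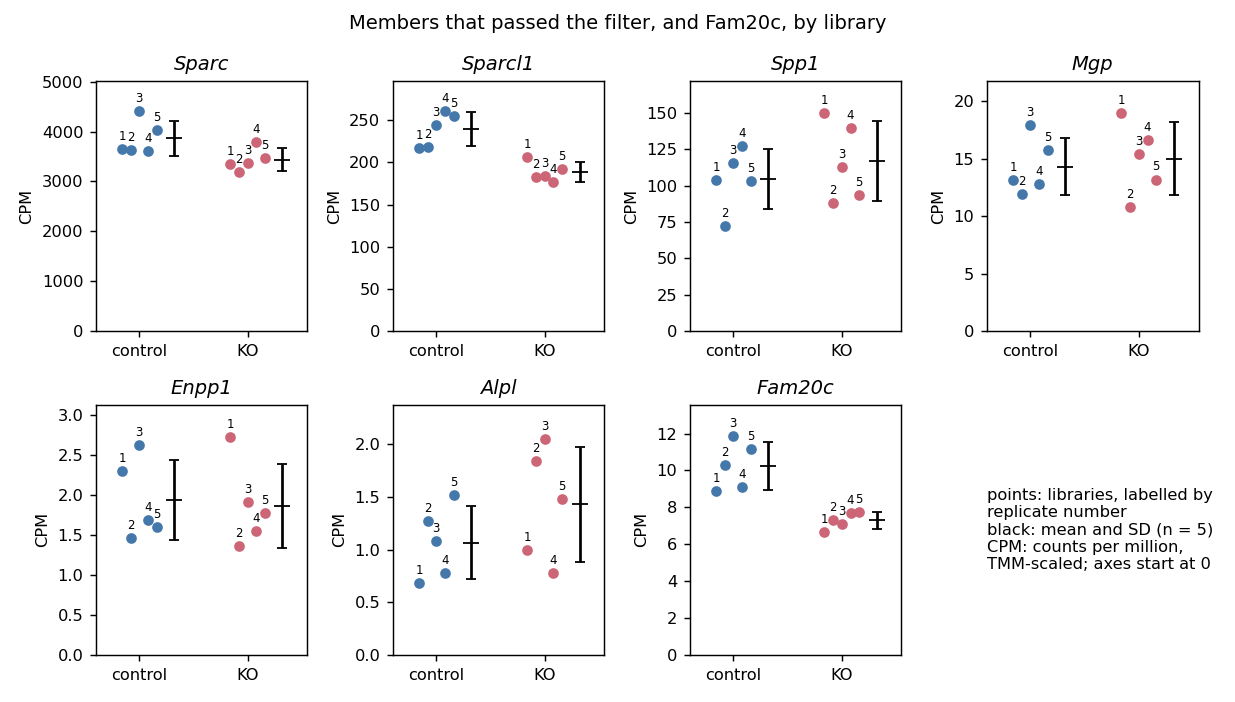
CPM in each library for the 6 tested genes and Fam20c, with points labelled by replicate number and black bars for the mean and SD (n = 5 per group). All axes start at 0. The 5 KO libraries lie below the 5 control libraries for Sparcl1 and Fam20c, and the groups overlap for the other 5 genes.

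Of the SIBLING phosphoproteins, only Spp1 was expressed at more than a few counts. Spp1 (ENSMUSG00000029304.15, chr5:104435118-104441050, plus strand) had 104.2, 72.4, 115.9, 127.1 and 103.1 CPM in controls 1 to 5 and 149.7, 87.8, 113.0, 139.8 and 93.5 CPM in KO 1 to 5, from 1838 to 3052 counts per library. The lowest library was control 2, the 2 highest were KO 1 and KO 4, and KO 2 and KO 5 lay below most controls. Control cultures averaged 104.5 ± 20.4 CPM (SD, n = 5) and KO cultures 116.8 ± 27.4 CPM. The log2 fold change of 0.16 (SE 0.164) had a 95% interval of -0.20 to 0.52, that is a ratio of 0.873 to 1.43, and did not pass the test (adjusted p = 0.802, edgeR quasi-likelihood test with Benjamini-Hochberg adjustment). A change of Spp1 larger than 1.43-fold upwards therefore lay outside the interval. Spp1 shares 309 of its 1648 exonic bases with Gm42793 on the same strand, which had a mean of 0.0505 CPM. How reads in these shared bases were counted is not given in the sources used here, so the Spp1 level per kb may be too low.

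Dmp1, a phosphoprotein of osteocytes and odontoblasts, had 9 counts in all, with 1, 3, 0, 0 and 3 in the controls and 1, 0, 0, 1 and 0 in the KO libraries. Ibsp, which binds hydroxyapatite in bone, had 2 counts, 1 each in control 2 and control 5. No library had more than 3 counts of either, so a difference was not detectable at this depth. Without a filter on low counts their fitted adjusted p was 0.668 each (edgeR quasi-likelihood test with Benjamini-Hochberg adjustment). The remaining SIBLING genes, Dspp of dentine and Mepe of bone, had 0 counts in all 10 libraries.

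Neither enzyme of pyrophosphate balance passed the test, and both lay near 1 to 2 CPM. Alpl (ENSMUSG00000028766.11, chr4:137741733-137796384, minus strand), the tissue-nonspecific alkaline phosphatase, had 0.682, 1.27, 1.08, 0.774 and 1.52 CPM in controls 1 to 5 and 0.992, 1.84, 2.05, 0.779 and 1.48 CPM in KO 1 to 5. KO 2 and KO 3 lay above every control library, and the other 3 KO libraries lay within the control range. The log2 fold change was 0.40 (SE 0.29, 95% interval -0.22 to 1.03, adjusted p = 0.673, edgeR quasi-likelihood test with Benjamini-Hochberg adjustment). At 13 to 47 counts per library, a doubling of Alpl lay within this interval.

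Enpp1 (ENSMUSG00000037370.14, chr10:24637914-24712159, minus strand), which makes pyrophosphate from extracellular ATP, had 2.31, 1.46, 2.63, 1.69 and 1.61 CPM in controls 1 to 5 and 2.73, 1.36, 1.92, 1.56 and 1.78 CPM in KO 1 to 5. Each group held both high and low libraries. The log2 fold change was -0.05 (SE 0.22, 95% interval -0.52 to 0.43, adjusted p = 0.974, edgeR quasi-likelihood test with Benjamini-Hochberg adjustment). Phex, an endopeptidase that degrades acidic peptides of the SIBLING proteins, had 2 counts in all, 1 in control 4 and 1 in KO 4.

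Of the vitamin K-dependent Gla proteins, Mgp was expressed and Bglap was near 0. Mgp (ENSMUSG00000030218.3, chr6:136872435-136875823, minus strand), an inhibitor of soft tissue calcification, had 13.1, 11.9, 17.9, 12.8 and 15.7 CPM in controls 1 to 5 and 19.0, 10.8, 15.4, 16.6 and 13.2 CPM in KO 1 to 5. The highest and the lowest value were both in KO libraries. The log2 fold change was 0.07 (SE 0.149, 95% interval -0.25 to 0.39, adjusted p = 0.928, edgeR quasi-likelihood test with Benjamini-Hochberg adjustment). Its sign turned without KO 1 (-0.025). Bglap, a hormone-like protein of osteoblasts, had 5 counts in all, with 0, 2, 1, 0 and 0 in the controls and 1, 0, 0, 0 and 1 in the KO libraries. Its near-identical copies Bglap2 and Bglap3 had 2 and 0 counts. Reads that match several of these copies equally well may be missing from each of them, so the level of Bglap is uncertain.

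Sparcl1 was the gene of the 10 that fell. Sparcl1 (ENSMUSG00000029309.8, chr5:104079111-104113733, minus strand), a secreted matricellular relative of SPARC that is also abundant in cells of blood vessels, had 217.3, 218.5, 244.8, 260.6 and 254.9 CPM in controls 1 to 5. It had 206.8, 183.2, 183.9, 177.3 and 192.3 CPM in KO 1 to 5. The highest KO library, KO 1, lay below the lowest control, and over all genes tested 567 (3.97%) had groups that did not overlap. Control cultures averaged 239.2 ± 20.3 CPM (SD, n = 5) and KO cultures 188.7 ± 11.4 CPM, a ratio of 0.789. The log2 fold change was -0.34 (SE 0.0612, 95% interval -0.47 to -0.21, adjusted p = 0.00995, edgeR quasi-likelihood test with Benjamini-Hochberg adjustment). By p-value Sparcl1 ranked 142 among the 309 genes that changed. The 2-sided exact permutation test over the 252 arrangements of the libraries gave p = 0.00794, the smallest it can give. Without control 4 and KO 1 the log2 fold change was also -0.34 (adjusted p = 0.00522, edgeR quasi-likelihood test with Benjamini-Hochberg adjustment). Gm26703, an antisense gene over Sparcl1, shares no exonic bases with it and had 0.0358 CPM.

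Sparc (ENSMUSG00000018593.14, chr11:55394500-55423183, minus strand), osteonectin in bone, had 3651, 3621, 4413, 3615 and 4037 CPM in controls 1 to 5 and 3346, 3184, 3370, 3795 and 3472 CPM in KO 1 to 5. KO 4 lay above 3 of the 5 controls, and the other 4 KO libraries lay below every control. Control cultures averaged 3868 ± 353 CPM (SD, n = 5) and KO cultures 3434 ± 227 CPM. The log2 fold change of -0.17 (SE 0.0676, 95% interval -0.32 to -0.03) had an unadjusted p of 0.0251 and did not pass after adjustment (adjusted p = 0.309, edgeR quasi-likelihood test with Benjamini-Hochberg adjustment). An unadjusted p under 0.05 was reached by 1697 of the 14270 genes (11.9%).

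**Figure D3:**
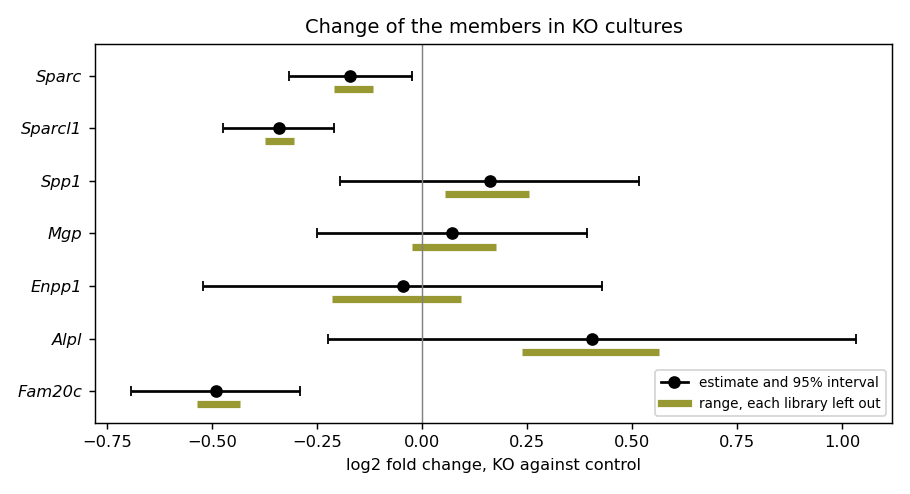
Log2 fold change of KO against control for the 6 tested genes and Fam20c, with 95% intervals from edgeR (black) and the range of estimates with each of the 10 libraries left out in turn (olive). The interval of Sparcl1 runs from -0.47 to -0.21, while those of Spp1, Mgp, Enpp1 and Alpl cross 0.

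Whether Sparcl1 changed differently from 3 other expressed members was tested on the log2 ratio of the 2 genes within each library, a test added after the values were seen. The log2 ratio of Sparcl1 to Spp1 was 1.21 ± 0.237 (SD, n = 5) in control and 0.72 ± 0.326 in KO, a difference of -0.49 (2-sided exact permutation test, p = 0.0397, adjusted over the 3 ratios 0.0833). The difference was -0.40 for the ratio to Mgp (exact permutation p = 0.0556, adjusted 0.0833) and -0.17 for the ratio to Sparc (exact permutation p = 0.0952, adjusted 0.0952). None of the 3 passed after adjustment, so the change of Sparcl1 was not shown to differ from that of its neighbour Spp1, of Mgp or of Sparc.

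Sparcl1, Dmp1, Ibsp and Spp1 lie in a row on chromosome 5, together with Dspp and Mepe. The Sparcl1 and Spp1 start sites are 321.4 kb apart. The row had a highly expressed gene at each end. Between Sparcl1 at 239.2 CPM and Spp1 at 104.5 CPM in control lay Dspp, Dmp1, Ibsp and Mepe, each under 0.1 CPM. The flanking genes Hsd17b11 (85.1 CPM in control, 82.8 in KO), Nudt9 (84.2 and 88.9) and Pkd2 (91.6 and 88.2), a hydroxysteroid dehydrogenase, an ADP-ribose hydrolase and a cation channel, had log2 fold changes of -0.04, 0.08 and -0.05 and did not pass the test. Of the 11 protein-coding genes of this stretch, Sparcl1 was thus the only one past the limit, 5 being tested. Fam20c lies 34.3 Mb further along the same chromosome.

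**Figure D4:**
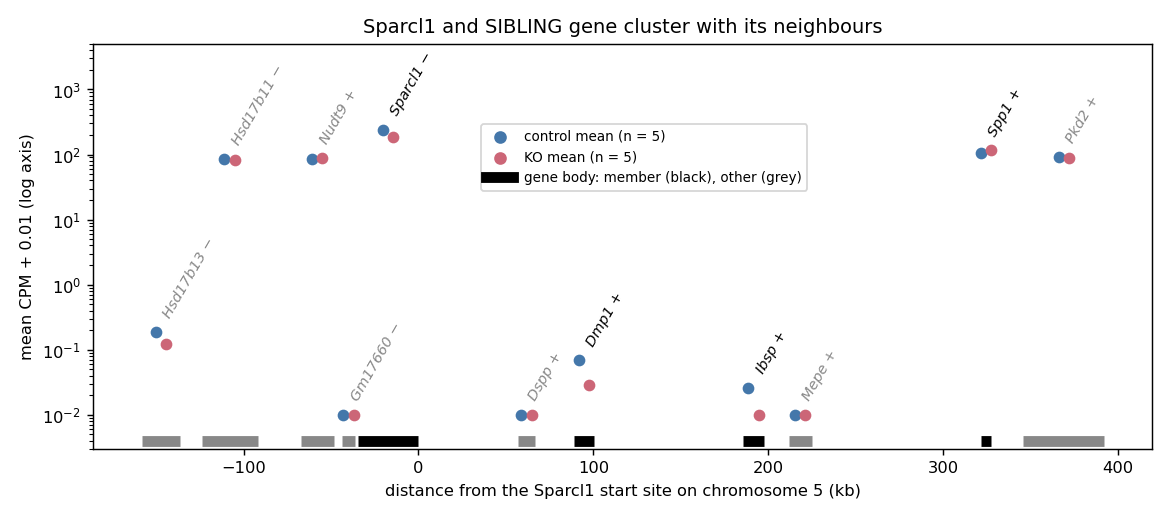
Mean CPM + 0.01 (log axis) of genes around Sparcl1 and the SIBLING cluster, by distance from the Sparcl1 start site in kb, with control and KO means (n = 5 each) side by side and gene bodies as bars. The names carry the strand. Sparcl1 (239.2 CPM in control, 188.7 in KO) and Spp1 (104.5 and 116.8) stand at the 2 ends of genes with almost no counts.

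A list of 40 other genes of mineralization, of which 27 were tested, was read in the same fit. Of the 27, 6 were lower and 1 was higher, and their median log2 fold change was -0.02. All 6 lower genes were among the 10 tested genes that the list holds as bone matrix. The other 4 of these, Omd, Bgn, Dcn and Thbs1, had log2 fold changes of -0.55, -0.09, -0.04 and -0.14 and did not pass. The lower genes were Col1a1 (1406 ± 149 CPM in control, 1078 ± 131 in KO, log2 fold change -0.38) and Col1a2 (-0.38), the chains of type I collagen, Pcolce (-0.31), which enhances cleavage of procollagen, and Postn (-0.31), a matricellular protein. The others were Ogn (52.7 ± 7.82 CPM in control, 36.8 ± 4.31 in KO, -0.52), a small leucine-rich proteoglycan, and Clec3b (-0.49), or tetranectin. Their adjusted p ranged from 0.0188 to 0.0473 (edgeR quasi-likelihood test with Benjamini-Hochberg adjustment). The higher gene was Atf4 (322.0 ± 16.9 to 366.5 ± 9.65 CPM, 0.19, adjusted p = 0.0388 in the same test), a transcription factor of the integrated stress response that also acts in osteoblasts. The largest estimates that missed the limit were those of Nt5e, which makes adenosine from AMP (17.7 ± 6.94 CPM in control, 27.3 ± 9.38 in KO), and of Omd (1.72 ± 0.563 and 1.16 ± 0.346 CPM). The osteoblast genes Sp7 and Sost had 2 and 0 counts in all 10 libraries.

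Related families gave few calls. Of the 8 SPARC-related genes 6 were tested, and Sparcl1 was the only one past the limit. The largest estimate outside the members was that of Smoc2 (13.2 ± 2.99 CPM in control, 11.4 ± 1.71 in KO), and the list median was -0.12. Of 9 tested Gla proteins and vitamin K enzymes 0 passed (median -0.09), Vkorc1, the vitamin K epoxide reductase, having 2.98 ± 0.214 CPM in control and 2.40 ± 0.365 in KO. Of 5 tested alkaline phosphatases and ENPP enzymes 0 passed (median 0.03). Enpp2, or autotaxin, named here after its values were seen, had 551.3 CPM in control and 546.4 in KO.

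Of 9 receptor subunits for osteopontin, all tested, 1 passed. Itgb3, the beta chain of the vitronectin receptor, had 30.9 ± 1.63 CPM (SD, n = 5) in control and 16.6 ± 2.11 in KO (log2 fold change -0.90, SE 0.0796, adjusted p = 7.46e-05, edgeR quasi-likelihood test with Benjamini-Hochberg adjustment). Its partner Itgav was not among the genes past the limit, and the list median was -0.08. Of 14 further secretory pathway substrates of FAM20C in the table, 3 were tested and 0 passed. Among them were Vwf (1.48 ± 0.258 CPM in control, 1.13 ± 0.235 in KO) and the oxidoreductase Ero1a (783.8 ± 133 and 916.2 ± 51.7 CPM). The enamel genes Enam, Ambn, Amelx and Amtn had 0 counts.

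Of the marker lists of other cells in the cultures, the endothelial list had the most genes past the limit. The summed CPM of 16 endothelial markers was 208.6 to 248.8 in control and 98.0 to 137.4 in KO libraries, and 13 of the 16 were lower, among them Pecam1 (42.0 ± 4.71 to 18.0 ± 4.06 CPM), Cdh5 (53.1 ± 5.11 to 22.1 ± 3.67) and Robo4 (12.2 ± 1.32 to 3.87 ± 0.846). The summed CPM of 12 fibroblast markers was 6403 to 7901 in control and 5530 to 6010 in KO, and 4 of the 12 were lower, namely Pdgfra, Lum, Col3a1 and Col1a1, of which Col1a1 also stands in the mineralization list. This sum rests mostly on collagen genes, Col3a1 (2630 CPM in control, 1896 in KO), Col1a1 (1406 and 1078) and Col5a3 (1326 and 1224). Of 12 mural cell markers 10 were tested and 0 passed, but all 10 had a lower estimate in KO (median log2 fold change -0.24). The mural sums were 200.4 to 264.0 in control and 163.6 to 220.8 in KO. The 10 adipocyte markers summed to 38230 to 39612 CPM in control and 40057 to 42240 in KO, with 0 of 10 past the limit. Fabp4 alone, at a mean of 20805 CPM in control and 22552 in KO, made up most of this sum. In bulk samples fewer cells of a type and less RNA per cell cannot be told apart. The part of these cells in the lower Sparcl1, Itgb3 and matrix genes was not tested.

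Macrophage markers, by contrast, had overlapping sums, from 1719 to 2587 CPM in control and from 1488 to 2444 in KO, and 1 of 14 was lower, Cd163 (44.4 ± 5.58 to 30.3 ± 3.53 CPM). On average most of the macrophage sum came from Lyz2 alone (1116 CPM in control, 1161 in KO). The KO libraries with most Spp1, KO 1 and KO 4, had sums of 2444 and 2213, and KO 2 and KO 5, with least Spp1, had 1589 and 1488. KO 3 had a sum of 2439 at an intermediate Spp1 level, and control 4, the control with most Spp1, had a sum of 1791. Their part in the Spp1 level was not tested. Of 12 bone and cartilage markers 3 were tested and 1 was higher, Acp5 (19.2 ± 1.88 to 27.1 ± 4.64 CPM), which osteoclasts and macrophages also express. Defining genes of osteoblasts, osteocytes and chondrocytes were at 0 to 4 counts in all 10 libraries together, namely Sp7 (2), Sost (0), Col2a1 (4), Acan (0) and Col10a1 (1).

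**Figure D5:**
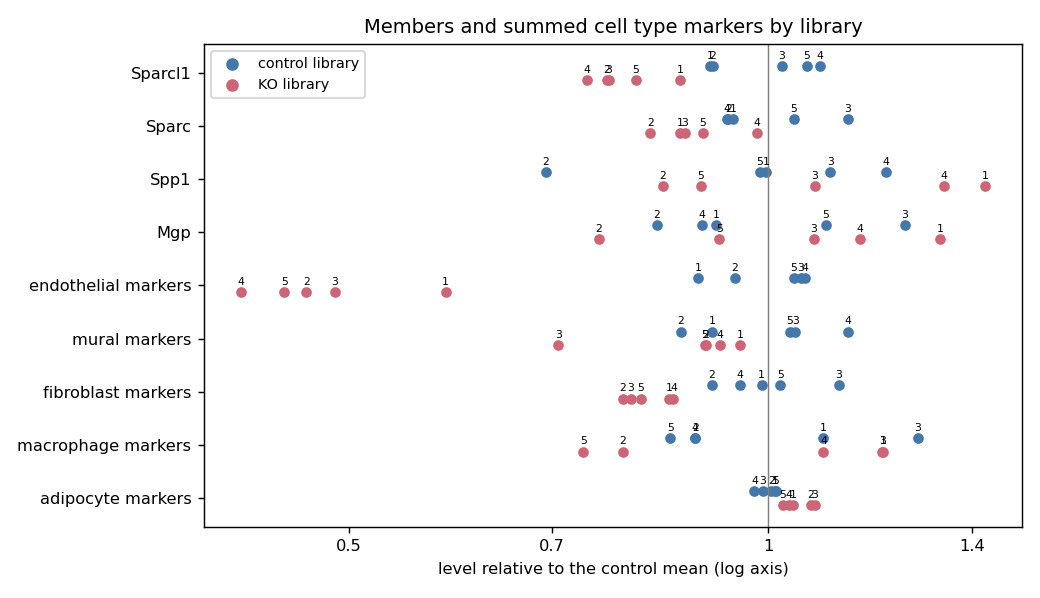
Level in each library relative to the mean of the control libraries (log axis) for 4 expressed members and for the summed CPM of 5 cell type marker lists, with points labelled by replicate number. The endothelial, fibroblast and adipocyte sums and Sparcl1 do not overlap between groups, while the macrophage and mural sums and Sparc, Spp1 and Mgp do. Abundant markers weigh most in each sum.

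Between libraries of a group the members varied to different degrees and not all together. The SD in control was 8.48% of the mean for Sparcl1, 9.12% for Sparc, 17.3% for Mgp, 19.5% for Spp1, 26.0% for Enpp1 and 32.6% for Alpl, the last 2 resting on few counts. As a description over the 10 libraries, with each group's mean removed, log2 CPM of Mgp and Spp1 had a Pearson correlation of 0.75, Mgp and Sparc 0.70, Mgp and Enpp1 0.70, Alpl and Spp1 -0.64 and Sparc and Sparcl1 0.13. KO libraries stood in the same order for Spp1 and Mgp, and control 2 was lowest in both. All points share a library, and with it depth and culture makeup. Among genes of at least 3 log2 CPM, those most like Sparcl1 were Htra1 (0.97), Htra3 (0.96) and P2rx4 (0.96), and those most like Spp1 were Manba (0.95), Vegfd (0.95) and Emilin2 (0.94). Pea15a (0.98), Rhog (0.96) and Rack1 (0.95) were most like Mgp, and Steap3 (0.97), Timm8b (0.97) and Ccn5 (0.96) most like Sparc. Zyx (0.94), Plpbp (0.91) and Ifi30 (0.91) were most like Enpp1, and Gtpbp3 (0.92), Tada2a (0.91) and Atic (0.91) most like Alpl. Each is the top of a search over all tested genes at that level, with only 10 libraries. Correlations this high can arise by chance in such a search, and they were not tested.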

How the data were processed

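Per the labels and the study's methods, libraries of cultured adipocytes were made with a SMARTer kit, and reads were mapped with STAR to GRCm38 (mm10). The labels and the deposited table hold 5 control and 5 KO libraries, whereas a figure legend of the study gives n = 4 for each. Every library entered the fit. The authors counted fragments per gene with featureCounts and an Ensembl annotation and deposited raw counts; the strand setting is not given in the sources used here. Of the identifiers, 52073 have a position in GENCODE M21, and 89.6% of these carry a version number 1 above that of M21, so positions and lengths rest on the identifier without its version.

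These counts were analysed with edgeR 4.0.16 (R 4.3.3). Genes with too few counts were dropped by filterByExpr at a minimum count of 10, library sizes were scaled by TMM, and the quasi-likelihood test compared the 2 groups over all 10 libraries, with Benjamini-Hochberg adjustment over 14270 genes and a limit of 0.05. CPM are scaled by TMM, and log2 CPM used a prior count of 2. Levels per kb used the union of exons. Exact permutation tests were 2-sided over 252 arrangements. The S-x-E count read codons of the principal transcript, overlapping motifs included. The genes named are the 10 members, Fam20c, list genes past the limit, up to 3 further genes of each list with the largest changes at a mean log2 CPM of at least 0, defining markers and, for each tested member, the 3 genes of highest correlation. The members and lists were chosen with earlier results of these data known. Of the deposited columns, 0 belonged to other samples. Libraries of a group differed by more than sampling noise (chi-square per degree of freedom at least 3.50). Alternatives were DESeq2 1.42.0, limma 3.58.1 voom with quality weights, other size factors, other filters, a block for the replicate number and each library left out. Scripts were tested on simulated counts. Genes of few counts carry the largest counting error. The values of 1 list gene are not reported here, and the counts of its list include it.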

Additional observations from a re-analysis of the deposited data

How the results depend on the processing

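Sparcl1 stayed past the limit under all 7 other settings of test, scaling, filter and block (log2 fold change -0.35 to -0.32, adjusted p 7.7e-05 to 0.0457, edgeR, DESeq2 or limma) and with each of the 10 libraries left out (-0.37 to -0.31, adjusted p 0.00628 to 0.0440). It was the only member past the limit in each of these. Fam20c stayed past the limit throughout (-0.54 to -0.43 with libraries left out). Sparc kept its direction (-0.21 to -0.12), as did Spp1 (0.05 to 0.25) and Alpl (0.24 to 0.56), and none of the 3 passed in any. With libraries left out, Enpp1 ranged from -0.21 to 0.093 and was above 0 without control 1 (0.021), control 3 (0.093), KO 2 (0.057) or KO 4 (0.012), and Mgp ranged from -0.025 to 0.18. Without control 4 and KO 1 together, chosen after seeing the data, Mgp was -0.061 and Enpp1 -0.25.

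Of all genes, 44 were higher in KO; the count was 125 with DESeq2, 111 with limma voom, 145 without control 4 and KO 1, and 19 to 119 with libraries left out, 119 without control 4, 29 without KO 3 and 19 to 24 without control 1, 3 or 5 or KO 2, 4 or 5. The 265 lower genes became 164 without KO 2 and 171 without KO 5, and at most 323 with a library left out. The causes were not tested. The replicate numbers are shared by both groups, but same-numbered libraries did not deviate together (correlations -0.25 to 0.26, and 2 of 10 libraries correlated best with their own number). With the replicate number as a block, 21 genes were higher and Sparcl1 was at -0.34 (adjusted p = 0.0457, edgeR quasi-likelihood test). Per kb of the longest transcript in place of the exon union, the order of the 10 members was the same. Without removal of group means, the genes most like Sparcl1 were Ccn2 (0.98), Synpo (0.97) and Mfhas1 (0.96). These correlations include the difference between the groups. Ccn2 (log2 fold change -0.72) and Synpo (-0.57) were themselves lower in KO past the limit, and Mfhas1 (-0.21) did not pass. Ibsp, Dmp1, Bglap and Phex gave a fitted value only without the filter on low counts. Counts of 0 to 3 per library limit what can be said of them.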
